A study of Mus musculus with 188 samples.

Results

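The vomeronasal receptor gene clusters examined here were 9 intervals of the mouse genome, 17 Mb in all, that carry arrays of Vmn1r and Vmn2r genes. Members were the 50 kb bins within these mm10 intervals with a binarized replication state, and no measured value was used to choose them. Of 340 bins in the intervals, 247 carried a state, out of 49588 bins with a state in the genome, and 93 were masked. A total of 236 members entered the analysis, as all cells had a state there and a smoothed score was present in 50% or more of the cells, line by line. They were compared with 44876 other autosomal bins that met the same criteria, and the 11 remaining members were not used. Each bin of a cell was scored 1 if it had replicated and 0 if it had not, based on DNA copy number.

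Single S-phase nuclei came from H129-2, a haploid mouse embryonic stem cell (mESC) line of the 129 strain, and from F121-9, a diploid hybrid of 129 and Castaneus. Both lines were grown in N2B27 medium with 2i and LIF, without any further treatment. Values were matched to 75 of 86 labelled haploid and 63 of 96 labelled diploid S-phase cells, while 6 haploid G1 cells had none. The haploid cells had replicated 61.1% ± 16.9 of the autosomal bins (SD, n = 75; range 24.6% to 88.6%) and the diploid cells 54.1% ± 9.56 (SD, n = 63; range 18.2% to 79.1%), which is their progress through S phase. No separate cultures are named within a line, so cells are not replicates of a line, no p-value is given, and every SD is the spread over cells. Strain and ploidy differ together between the lines and cannot be told apart. Read numbers are not part of the values and the depth of a cell is unknown.

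Vomeronasal receptors are G protein-coupled receptors with which sensory neurons of the vomeronasal organ detect pheromones and other chemical signals. V1R receptors, encoded by Vmn1r genes, are found with the G protein subunit Gnai2 in apical neurons of the organ. V2R receptors, encoded by Vmn2r genes, have a long extracellular domain and are found with Gnao1 in basal neurons. Both families arose by repeated local duplication and lie in arrays with many pseudogenes. V1R genes are chosen by each neuron in a nearly exclusive way. Embryonic stem cells are not sensory neurons, so the values below describe when the arrays replicate in a cell type that is not known for using them.

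The intervals are named here by their first and last protein-coding receptor gene. Vmn2r1 to Vmn2r7 lay on chromosome 3 (chr3:64000001-65000000) and Vmn2r8 to Vmn2r17 on chromosome 5 (chr5:108600001-110100000). Chromosome 6 held Vmn1r4 to Vmn1r25 (chr6:56700001-58000000), Vmn1r40 to Vmn1r54 (chr6:89500001-90600000) and Vmn2r19 to Vmn2r27 (chr6:123000001-124700000). Chromosome 7 held Vmn1r103 to Vmn1r178 (chr7:20500001-23900000), Vmn2r58 to Vmn2r63 (chr7:41400001-42900000) and Vmn2r65 to Vmn2r76 (chr7:84000001-86600000). Vmn2r124 to Vmn1r226 lay on chromosome 17 (chr17:17800001-20700000), the only interval with both families. In the GENCODE annotation the intervals held 124 Vmn1r and 125 Vmn2r genes, of which 160 were protein-coding and 89 were not. A further 312 of the 561 autosomal vomeronasal receptor genes lay elsewhere.

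Duplicated receptor genes can be nearly identical in sequence, and promoters of the receptor genes give examples. The paper's masking included a step meant to discard repetitive segments that map poorly. Reads and their mapping were not examined here, so whether the likeness of these genes led to their masking was not tested. The first pair printed is among the most alike of the promoters in masked bins that are not identical, at a level that other pairs share, and both lie in the Vmn1r103 to Vmn1r178 cluster on the minus strand. The second pair is the most alike in the chromosome 17 cluster, which replicated latest, and both lie on the plus strand in bins with a state. Each run is 300 bases of GRCm38.p6 from RefSeq, from 250 bases before to 50 bases after the gene start, and capitals mark the bases that differ within a pair. Vmn1r122 is at chr7:21134079-21134378, Vmn1r159 at chr7:22843556-22843855, Vmn2r91 at chr17:18084807-18085106 and Vmn2r92 at chr17:18151680-18151979.
Vmn1r122: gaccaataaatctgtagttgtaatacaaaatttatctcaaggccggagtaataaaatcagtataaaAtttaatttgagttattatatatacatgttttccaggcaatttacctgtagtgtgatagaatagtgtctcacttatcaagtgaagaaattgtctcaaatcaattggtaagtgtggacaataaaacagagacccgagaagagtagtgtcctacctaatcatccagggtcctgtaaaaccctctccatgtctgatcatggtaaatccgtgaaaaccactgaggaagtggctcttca
Vmn1r159: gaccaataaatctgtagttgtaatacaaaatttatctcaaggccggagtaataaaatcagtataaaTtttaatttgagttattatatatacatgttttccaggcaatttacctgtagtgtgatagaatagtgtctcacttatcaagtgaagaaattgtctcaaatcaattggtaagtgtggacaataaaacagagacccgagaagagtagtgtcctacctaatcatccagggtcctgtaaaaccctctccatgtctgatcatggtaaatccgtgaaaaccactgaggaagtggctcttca
Vmn2r91: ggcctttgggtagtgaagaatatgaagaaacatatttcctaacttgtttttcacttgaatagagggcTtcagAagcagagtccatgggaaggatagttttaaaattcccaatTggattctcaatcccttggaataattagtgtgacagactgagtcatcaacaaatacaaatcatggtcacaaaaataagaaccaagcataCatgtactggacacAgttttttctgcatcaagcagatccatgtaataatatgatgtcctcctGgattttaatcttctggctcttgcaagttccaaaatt
Vmn2r92: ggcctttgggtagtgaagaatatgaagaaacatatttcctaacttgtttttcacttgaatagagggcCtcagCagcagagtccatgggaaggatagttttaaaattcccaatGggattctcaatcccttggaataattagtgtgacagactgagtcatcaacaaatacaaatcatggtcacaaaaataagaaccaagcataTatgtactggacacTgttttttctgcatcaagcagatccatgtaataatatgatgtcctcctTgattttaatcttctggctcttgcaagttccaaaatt
The Vmn1r pair differed at 1 of 300 bases (99.7% identity) although the genes are more than a megabase apart. The Vmn2r pair differed at 6 bases (98.0% identity), and their bins ranked at 64.7 and 71.1 in replication order, where 100 is the last bin of the genome.

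Masked bins were 27.4% of the bins in the clusters, against 5.12% of 49264 autosomal bins. They were unevenly spread, with 56 of 68 bins masked in Vmn1r103 to Vmn1r178, 12 of 20 on chromosome 3, 10 of 30 on chromosome 5, 10 of 34 in Vmn2r19 to Vmn2r27 and 5 of 30 in Vmn2r58 to Vmn2r63. No bin was masked in the other 4 intervals. Of 206 bins that overlap a receptor gene, 63 were masked, and 157 of the 249 genes touched a bin that entered the analysis. For the Vmn1r103 to Vmn1r178 array, 11 of 67 genes did, so that the replication of most of this array was not measured.

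The masked bins were rich in repeated sequence. A median of 87.3% of their 50-mers occurred again on the same chromosome, compared with 10.9% in members and 3.41% in the other used bins. Over 20% of 50-mers were repeated in 81 of the 93 masked bins, and in 49 of the 236 used members (20.8%, background 5.01%). Within Vmn1r103 to Vmn1r178 the median was 98.9% in masked bins and 26.7% in the 12 bins with a state. Promoters followed the same division. Each was set against the promoters of the other receptor genes, base by base from the gene start and without gaps. An inserted base or a shifted start therefore lowers the identity of copies that are otherwise alike. The nearest match was identical or nearly so, at 95% or more, for 59 of 74 promoters in masked bins (79.7%). In bins with a state this held for 9 of 91 (9.89%). Exact copies numbered 46 and 2. Vmn1r103 to Vmn1r178 held 57 of the 74 promoters in masked bins, with 52 at 95% or more and 45 exact copies. At 95% or more were 2 of 8 masked promoters on chromosome 5, 2 of 4 on chromosome 3, 2 of 4 in Vmn2r19 to Vmn2r27 and 1 of 1 in Vmn2r58 to Vmn2r63. By this measure most promoters in bins with a state had no nearly identical match, and the likeness of whole genes was not measured. Values below cover members with a state alone. Receptor promoters were poor in G and C, with a median of 36.7% against 52.7% over 32851 promoters, and held a median of 2 CpG dinucleotides against 7.

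**Figure D1:**
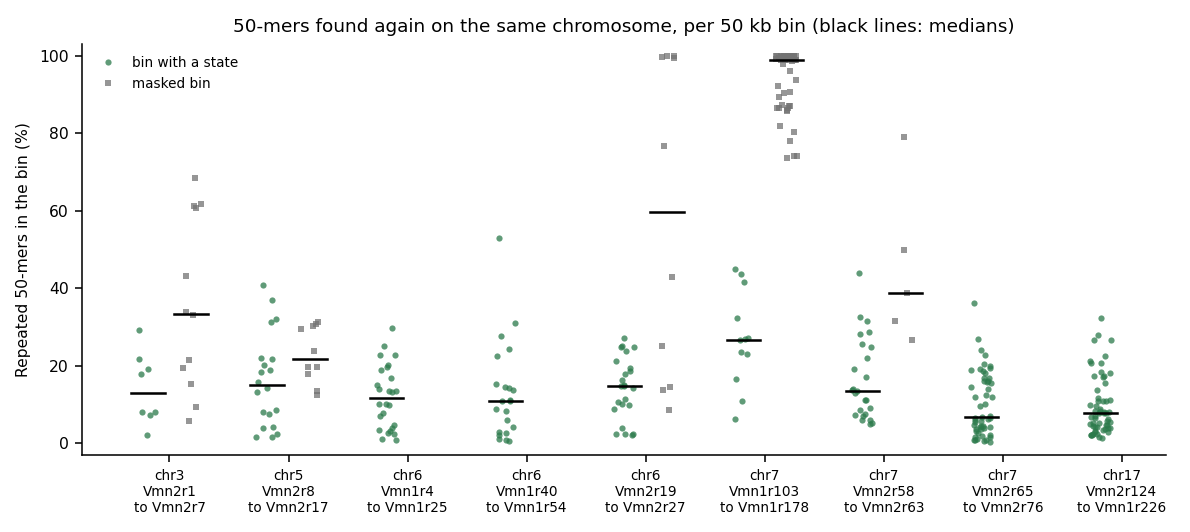
Percentage of 50-mers in each 50 kb bin (vertical axis) that occur more than once on the same chromosome, for bins with a state (circles) and masked bins (squares) of each cluster, with medians as black lines. Masked bins of Vmn1r103 to Vmn1r178 lie between 73.7% and 100%, while all bins with a state of that cluster lie at or below 44.9%.

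Some cells need to be named before the results. In 3 pairs of diploid cells the smoothed scores were nearly the same (r = 0.934 for wells C1 and G3, 0.924 for C5 and F7, and 0.924 for C12 and F11), and the next pair stood at 0.894. In 4 cells the states of the other autosomal bins followed the replication order least, with a correlation above -0.45 compared with a median of -0.741. These were the haploid cells G5 and F7, at 83.99% and 83.3% progress, and the diploid cells C7 and A2, at 20.4% and 18.2%. The possible size of this correlation shrinks when few or most bins have replicated, so these cells and the median are not on equal terms. Results are given with all cells, and their values without these cells stand beside them where they matter.

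The order of replication was taken as scheduled time, the percentile rank of a bin among the used autosomal bins in mean smoothed score over all cells, from 0 for the first to 100 for the last. The clusters replicated late as a group but were far from uniform. The median member stood at 58.7, with quartiles at 49.3 and 89.4. Of 236 members, 175 fell in the later 50% of all bins (74.2%, background 50%), 56 in the latest 10% (23.7%, background 10%) and 5 in the earliest 10%. All 56 of the latest came from 2 of the 9 clusters. The chromosome 17 cluster held 36 and Vmn2r65 to Vmn2r76 held 20. Without the 4 cells that follow the order least the median was 58.7, and without a cell of each similar pair it was 58.7.

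From earliest to latest, the cluster medians were 36.9 for Vmn2r8 to Vmn2r17, 45.1 for Vmn1r40 to Vmn1r54, 47.8 for Vmn2r19 to Vmn2r27, 53.5 for Vmn2r1 to Vmn2r7 and 55.9 for Vmn2r58 to Vmn2r63. They continued with 70.5 for Vmn1r103 to Vmn1r178, 75.2 for Vmn1r4 to Vmn1r25, 86.3 for Vmn2r65 to Vmn2r76 and 91.9 for the chromosome 17 cluster. The first and the last were 54.98 points apart. Neighbours in this order overlapped in the range of their bins. Arrays of V2R genes, alone or with few V1R genes, stood at both ends of the order, and the V1R arrays stood at 45.1, 70.5 and 75.2.

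**Figure D2:**
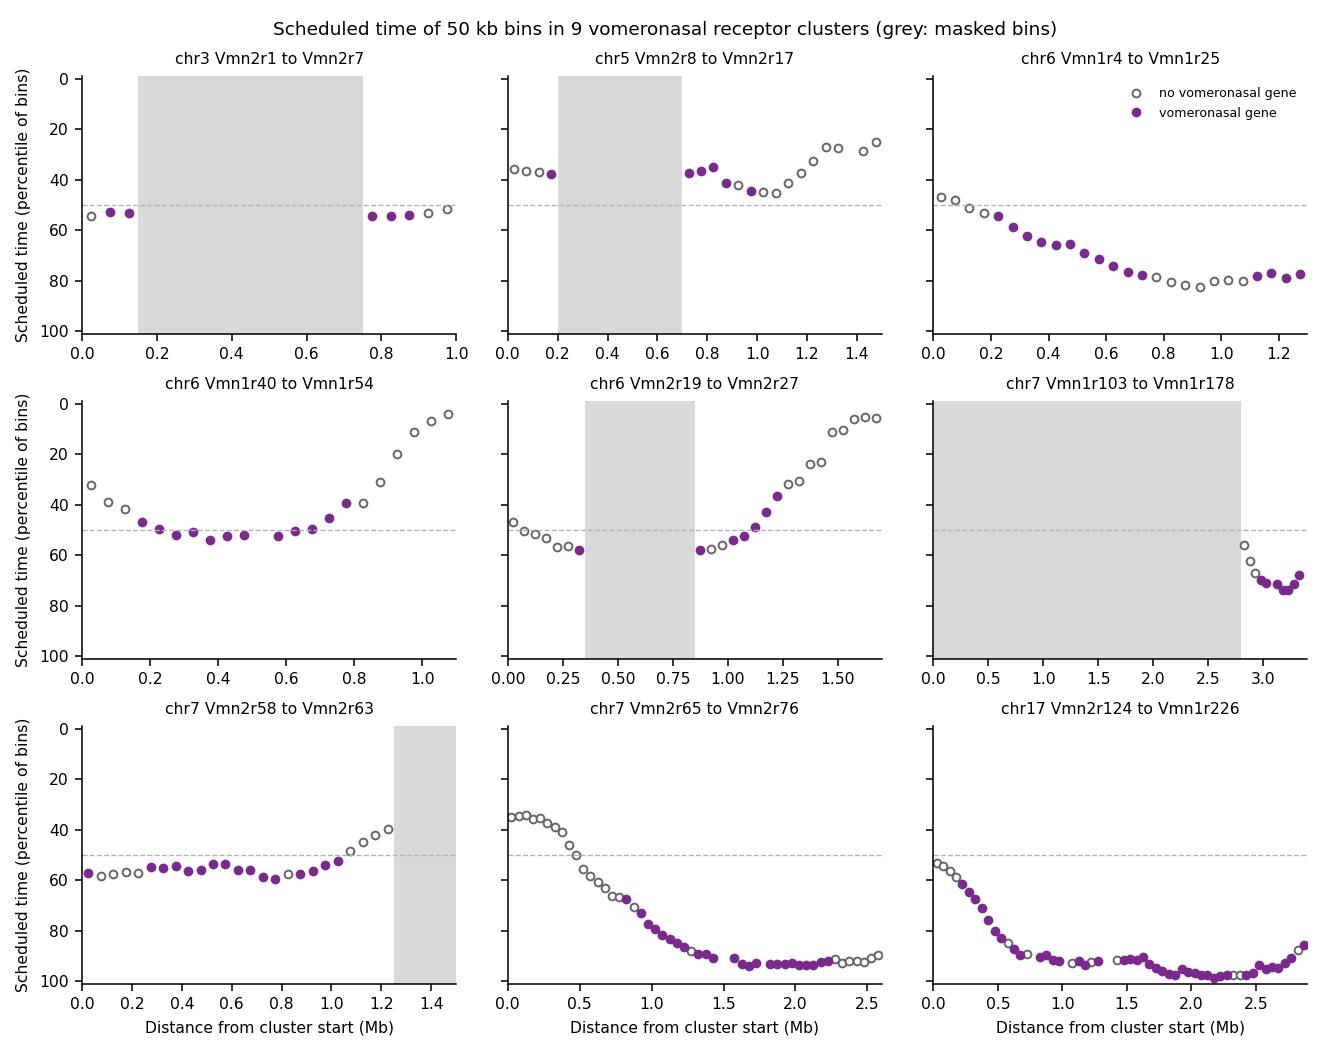
Scheduled time of each used bin (vertical axis, percentile of bins, earliest at the top) against distance from the start of its cluster in Mb, with bins that overlap a vomeronasal receptor gene filled, other bins open and masked bins in grey. The chromosome 17 cluster descends from 53.4 at its start to 98.7, and Vmn2r65 to Vmn2r76 from 34.05 to 93.8, while the 8 bins of chromosome 3 stay between 51.8 and 54.5.

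The chromosome 17 cluster was the latest. It holds 35 Vmn2r and 6 Vmn1r genes, from Vmn2r124 to Vmn1r226, together with the formyl peptide receptor genes. Its 54 used bins ran from 53.4 in the first, which carries the start of Spaca6, to 98.7 at chr17:19950001-20000000, where the pseudogene Vmn2r-ps125 lies. That bin had replicated in 5.33% of the haploid cells but 0.794% of the diploid ones. The schedule was taken from the smoothed scores of these same cells, so their states describe the cluster and are no separate support. A mean of 20.2% ± 23.6 of the bins had replicated in the 75 haploid cells and 6.20% ± 9.01 in the 63 diploid cells. In 14 haploid and 30 diploid cells not a single bin had replicated. Over 50% of the bins had replicated in 7 haploid and 0 diploid cells. By progress, the haploid mean was 4.71% in 11 cells under 40%, 11.7% in 25 cells from 40% to 60%, 18.7% in 28 cells from 60% to 80% and 58.9% in 11 cells above 80%. The haploid cells above 80% include G5 (100%) and F7 (75.9%), named above, and their median was 42.6%. The diploid means did not follow progress, at 18.1% in 4 cells under 40%, 4.24% in 45 cells from 40% to 60% and 9.13% in 14 cells from 60% to 80%. The first of these means rests on cell A5 (44.4%) and on cell C7 (27.8%), also named above, as the other 2 cells had replicated 0%.

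Vmn2r65 to Vmn2r76, with 34 Vmn2r genes of which 12 are protein-coding, combined an early edge with a late body. Its bins fell from 34.05 at chr7:84100001-84150000, without a receptor gene, to 93.8 at chr7:85650001-85700000, where Vmn2r-ps73 lies. A mean of 40.5% ± 28.8 of its 49 bins had replicated in haploid cells and 22.4% ± 15.7 in diploid cells. Receptor gene bins had a median of 91.3 and the other bins 60.9.

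The V1R array from Vmn1r4 to Vmn1r25 (28 genes, Vmn1r4 to Vmn1r-ps13) ran from 47.05, in the bin with the starts of Avl9 and Lsm5, to 82.4 in a stretch without receptor genes. Haploid cells had replicated 41.8% ± 35.98 of its 26 bins and diploid cells 24.6% ± 21.4. The haploid mean was 48.4% between 60% and 80% progress and 96.2% above 80%, where 10 of 11 cells had replicated all 26 bins. The 10 measured bins of Vmn1r103 to Vmn1r178 lay between 55.8, where Nlrp4e starts, and 73.9 at Vmn1r173. They had replicated to 47.1% ± 45.02 in haploid and 25.4% ± 37.2 in diploid cells, with none replicated in 22 and 31 cells and all in 30 and 11.

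The other V1R array, Vmn1r40 to Vmn1r54 (23 genes from Vmn1r-ps25 to Vmn1r54), formed a dip between early surroundings. Its latest bin, at 53.97, carries Vmn1r42, Vmn1r43 and Vmn1r44. Its edge bin at chr6:90550001-90600000 stood at 4.14. All 28 haploid cells from 60% to 80% progress and all 11 above 80% had replicated the 21 bins, as had 17 of 25 haploid cells between 40% and 60%. Diploid cells did so in 8 of 14 cells above 60% and in 25 of 45 between 40% and 60%.

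The remaining V2R arrays replicated near the middle of the order or before it. Vmn2r8 to Vmn2r17 ran from 25.1, next to Plcxd1, Gm17655 and Gm35315, to 45.1, and its 19 bins had replicated to 90.6% ± 22.4 in haploid and 90.1% ± 23.4 in diploid cells. Replication of all 19 was complete in 62 haploid and 51 diploid cells. Vmn2r19 to Vmn2r27 ran from 5.49, where C1s2 starts, to 57.9 at Vmn2r25. It had replicated to 80.5% ± 29.1 in haploid and 64.4% ± 26.8 in diploid cells. Vmn2r58 to Vmn2r63, with 13 genes from Vmn2r-ps54, ran from 39.9, where Zfp976 starts, to 59.6 at Vmn2r60. It had replicated to 74.2% ± 33.9 and 50.2% ± 38.4. The chromosome 3 cluster, with 18 genes from Vmn2r-ps3 to Vmn2r-ps13, had 8 used bins between 51.8 and 54.5, the latest at Vmn2r7. None had replicated in 20 haploid and 17 diploid cells, all had in 37 and 36, and the means were 61.2% ± 43.4 and 62.5% ± 45.9.

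**Figure D3:**
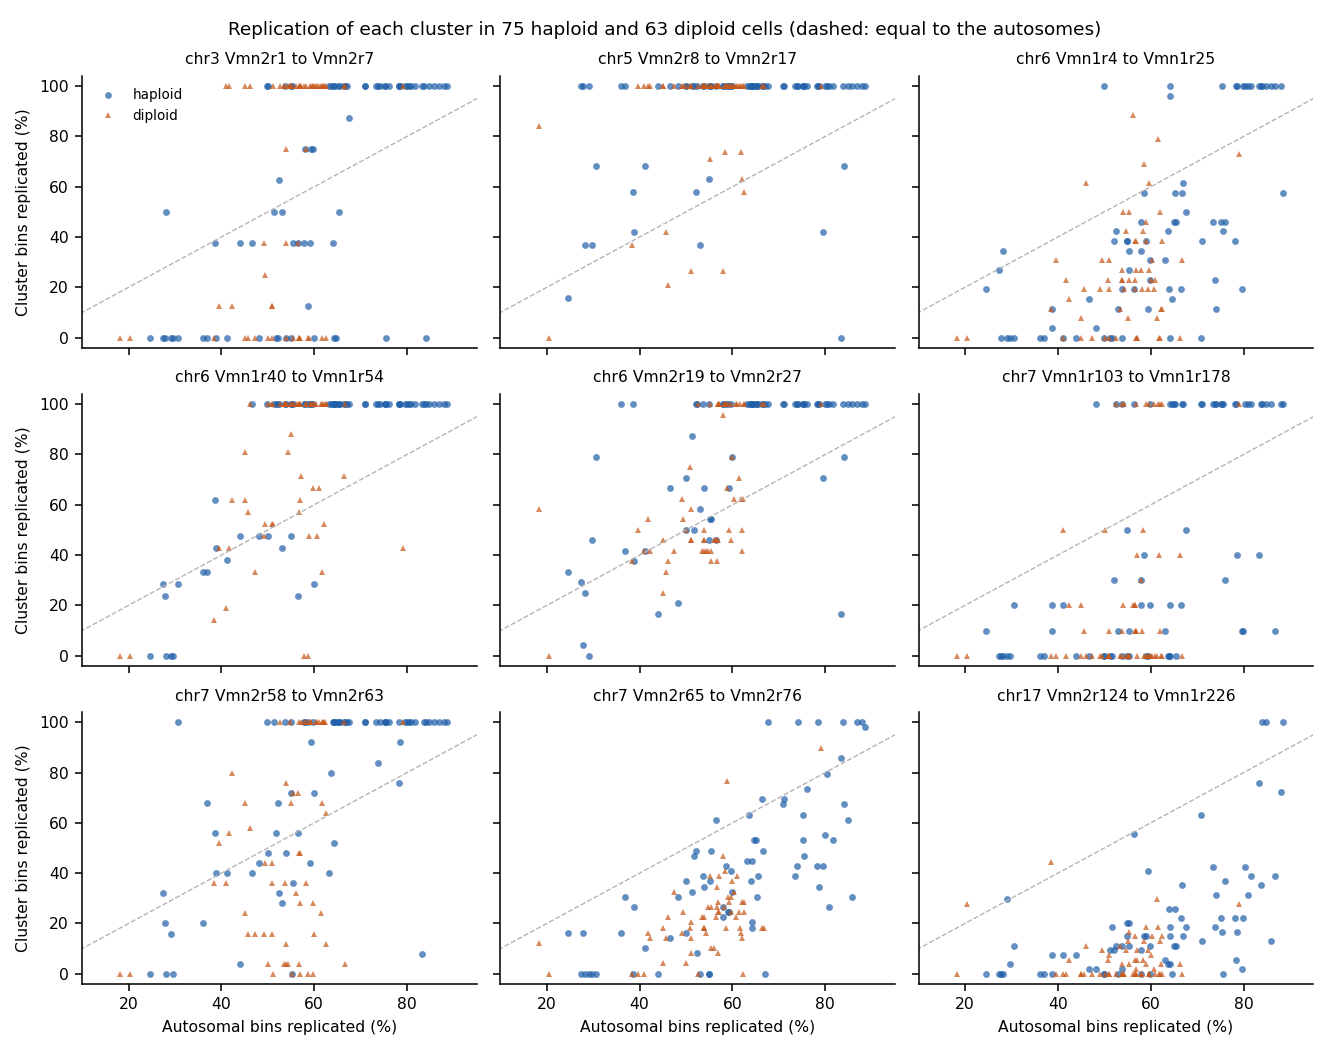
Percentage of each cluster's bins that had replicated (vertical axis) against progress, the percentage of all used autosomal bins replicated (horizontal axis), with 1 circle per haploid and 1 triangle per diploid cell and equality dashed. Vmn2r8 to Vmn2r17 lies above the dashed line in most cells, and the chromosome 17 cluster lies below it in most.

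The 4 cells named above stood out in this comparison as well. The haploid cell F7 had replicated 0% of Vmn2r8 to Vmn2r17, the earliest cluster, and 75.9% of the chromosome 17 cluster, the latest. The haploid cell G5 had replicated 100% of the chromosome 17 cluster and 0% of chromosome 3. In the diploid cell C7, 27.8% of the chromosome 17 bins had replicated and 0% of the bins of the other 8 clusters. The diploid cell A2 had replicated 84.2% of Vmn2r8 to Vmn2r17 and 0% of 6 clusters.

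Within a cell, members lagged behind the rest of the autosomes. In haploid cells they had replicated to 52.4% and other bins to 61.2%, a difference of -8.78 points ± 8.41 (SD, n = 75), with members lower in 63 cells and higher in 12. In diploid cells the values were 37.7% and 54.2%, a difference of -16.5 points ± 6.91 (SD, n = 63), and members were lower in all 63 cells. The haploid gap was -11.6 points under 40% progress, -11.1 from 40% to 60%, -7.70 from 60% to 80% and -3.52 above 80%, where 5 cells were lower and 6 higher. The gap rested on the chromosome 17 cluster in haploid cells. Without it members were 0.762 points ahead, and in diploid cells the gap was -7.11. With every cluster counted once, whatever its number of bins, the gaps were -1.34 and -7.49 points. Without the 4 cells that follow the order least the gaps were -8.76 and -16.7.

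Bins that overlap a receptor gene replicated later than the other bins of the same clusters. Their medians were 73.97 (134 bins) and 51.8 (102 bins), 22.2 points apart, and receptor gene bins were later in 7 of 9 clusters. The gap was 30.4 points in Vmn2r65 to Vmn2r76, 20.7 in Vmn2r19 to Vmn2r27 and 19.6 in Vmn1r40 to Vmn1r54. It was 9.35 in Vmn1r103 to Vmn1r178, 3.90 on chromosome 17, 1.05 on chromosome 5 and 0.818 on chromosome 3. The order was turned in Vmn1r4 to Vmn1r25 (-8.54) and Vmn2r58 to Vmn2r63 (-0.727). Without the chromosome 17 cluster the gap over all bins was 11.1. By family, the medians were 68.5 for 38 Vmn1r bins and 86.8 for 98 Vmn2r bins. Without chromosome 17 the order was reversed, at 65.8 (34 bins) and 57.3 (58 bins). Receptor gene bins outside the intervals had a median of 54.8 (133 bins).

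Surroundings differed from cluster to cluster. Over the megabase on each side, Vmn1r40 to Vmn1r54 was flanked by medians of 5.001 and 5.68 and itself stood at 45.1, and Vmn1r103 to Vmn1r178 stood at 70.5 between 10.51 and 15.3. The chromosome 17 cluster, at 91.9, lay between 50.0 and 52.1. These 3 were later than both sides, but the left side of Vmn1r103 to Vmn1r178, with 11 used bins, does not adjoin the measured bins, since 56 masked bins lie between them. Vmn1r4 to Vmn1r25, at 75.2 between 57.5 and 62.9, and Vmn2r19 to Vmn2r27, at 47.8 between 35.9 and 2.46, were also later than both sides. The others were close to one side or lay between both, with 86.3 for Vmn2r65 to Vmn2r76 between 49.3 and 86.6, 55.9 for Vmn2r58 to Vmn2r63 between 74.4 and 9.997, 53.5 on chromosome 3 between 53.7 and 35.1, and 36.9 on chromosome 5 between 36.8 and 13.96.

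Base composition also differed between clusters. The GC median was 39.2% in used members and 41.5% in the other used bins, lowest on chromosome 17 (37.3%) and in Vmn2r65 to Vmn2r76 (37.8%), and highest in Vmn1r40 to Vmn1r54 (41.8%). Across bins, scheduled time and GC correlated at r = -0.759 in 236 members and at -0.788 in 44876 other bins. Bins are neighbours on the same chromosomes, and the smoothing shares values between them, so these are descriptions. Soft-masked repeats made up a median of 47.8% of a used member and 30.7% of another used bin.

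Olfactory receptor genes, the other large chemosensory family in arrays, offered the nearest comparison. Their 568 bins outside the clusters had a median of 63.3, and 5 of them (0.880%) fell in the latest 10%. The median of members minus that of olfactory bins was -4.60 points, and its sign turned when any of 4 clusters was left out. Members include 102 bins without a receptor gene, whereas each olfactory bin overlaps an olfactory receptor gene. The 134 members that overlap a vomeronasal receptor gene had a median of 73.97, later than the olfactory bins. That order depended on the clusters included. Without chromosome 17, Vmn1r bins stood at 65.8 (34 bins) and Vmn2r bins at 57.3 (58 bins), on either side of the olfactory median. The 133 vomeronasal receptor gene bins outside the intervals had a median of 54.8, earlier than the olfactory bins. Cells had replicated 57.1% of olfactory bins in the haploid and 38.2% in the diploid line.

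Chromosome segments can replicate in part, so clusters were scored as mixed when over 10% and under 90% of their bins had replicated in a genome. Over 201 genomes, counting both homologs of a diploid cell, 40.8% of cluster values were mixed, against 32.4% in windows of the same number of bins tiled over the other autosomal bins. The states of both homologs start from a shared state of the cell and differ only at segments called asynchronous. Homologs differed at any member in 9 of 63 diploid cells, so most diploid cells entered with the same cluster values for both homologs. The 201 genomes are therefore not separate values, and the percentages give a diploid cell more weight than a haploid cell. Vmn2r65 to Vmn2r76 was mixed in 80.1% (52.8% in tiled windows), Vmn1r4 to Vmn1r25 in 64.7% (34.5%) and Vmn2r19 to Vmn2r27 in 54.7% (32.4%). Smaller differences in the same direction were seen in Vmn2r58 to Vmn2r63 (44.8% and 33.8%), Vmn1r40 to Vmn1r54 (32.8% and 28.5%), Vmn1r103 to Vmn1r178 (19.4% and 13.4%) and on chromosome 3 (18.4% and 13.4%). The chromosome 17 cluster was mixed less often than tiled windows, in 35.8% (54.3%), as was Vmn2r8 to Vmn2r17, in 16.4% (28.2%).

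Single bins could also run ahead of schedule or behind it. Of member values more than 15 points before their time, 6.56% were already replicated, against 5.45% elsewhere, and of those more than 15 points past it 6.47% were unreplicated, against 4.51%. The early share split by line. It was 9.45% in haploid cells (5.55% elsewhere) and 3.74% in diploid cells (5.37% elsewhere). The late share was higher among members in both, at 5.98% and 3.89% in haploid and 7.47% and 5.37% in diploid cells. Without the 4 cells that follow the order least, the excess of late values over the other bins went from 1.97 to 1.19 points. Early values were most frequent in Vmn2r58 to Vmn2r63, at 28.3% of 254 values in haploid and 22.3% of 112 in diploid cells, among clusters with at least 100 such values in both lines.

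The shared variation of clusters from cell to cell was small. The deviation of a cluster from what its line and progress give was correlated over 135 cells for each pair of clusters. The 6 pairs on the same chromosome lay between r = -0.0700 and 0.104 and the 30 pairs on different chromosomes between -0.209 and 0.222. This describes cells of the same cultures and is no test of independence.

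Haploid and diploid cells were compared at the same progress, in strata of 5 points with at least 2 cells of each line. These took in 43 haploid and 60 diploid cells in 7 strata. Members had replicated to 45.3% in haploid and 37.7% in diploid cells, 7.66 points apart, where cells of a line within a stratum had an SD of 6.62. The haploid mean was the higher in 6 of 7 strata. The other bins differed by 0.554 points. They are nearly all of the bins that define progress, so matching on progress holds this value near 0 and it is no reference. Without a cell of each similar pair the difference of the members was 7.86. Olfactory receptor bins also had a haploid lead. In cells from 40% to 60% progress, not matched further, they had replicated to 44.8% in haploid and 36.5% in diploid cells. Members stood at 42.5% and 36.9% in those cells, so the lead was not particular to the clusters.

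By cluster, the difference was largest in Vmn2r58 to Vmn2r63, at 17.4 points (68.2% and 50.8%), and in Vmn2r19 to Vmn2r27, at 13.03 points (78.4% and 65.3%). It was 9.67 points in Vmn2r65 to Vmn2r76, 6.91 in Vmn1r103 to Vmn1r178, 6.78 in Vmn1r40 to Vmn1r54, 5.68 on chromosome 17, 4.92 in Vmn1r4 to Vmn1r25 and 2.79 on chromosome 5. On chromosome 3 diploid cells were ahead, with a difference of -14.2 points. In each cluster taken alone the difference was smaller than the SD of cells within a line and stratum, which ran from 9.36 on chromosome 17 to 40.1 on chromosome 3.

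**Figure D4:**
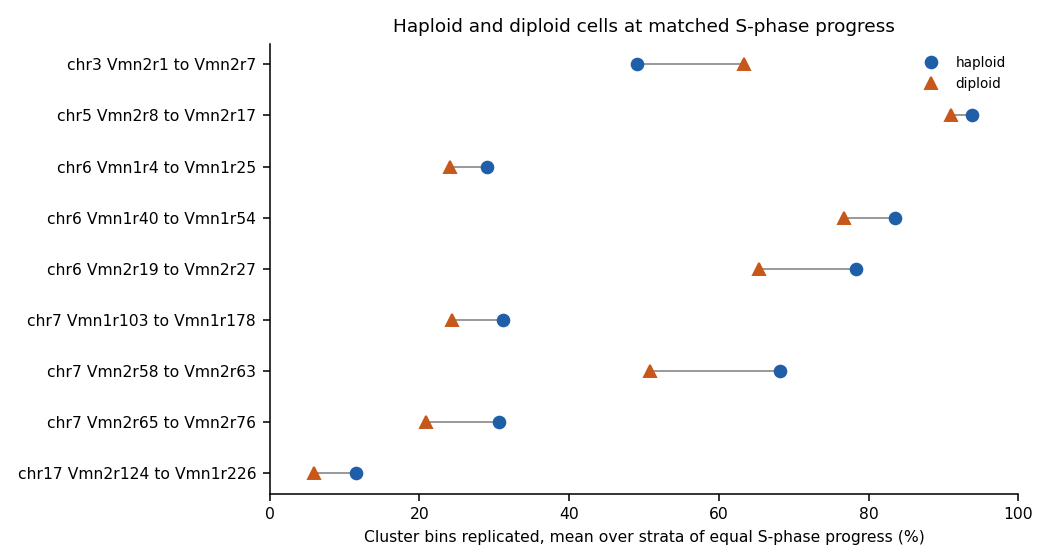
Mean percentage of each cluster's bins replicated in haploid (circles) and diploid cells (triangles), weighted over 7 strata of equal progress. Haploid cells are ahead in 8 clusters and behind in Vmn2r1 to Vmn2r7, where the means are 49.1% and 63.3%, and the spread between cells is given in the text.

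Of single members, 25 of 236 (10.59%, background 3.03%) were at least 25 points higher in haploid cells and 0 were at least 25 points higher in diploid cells (background 3.3%). They lay in Vmn2r65 to Vmn2r76 (11), on chromosome 17 (5), in Vmn2r19 to Vmn2r27 (5) and in Vmn2r58 to Vmn2r63 (4). Their scheduled times ran from 50.04 to 79.4, and few haploid cells had replicated the latest bins, where a lead of 25 points has little room. Of the 25, 9 overlap a receptor gene. The largest difference at matched progress was 41.3 points at chr7:84700001-84750000, a bin without a receptor gene. Over all cells, not matched, that bin had replicated in 66.7% of the haploid cells but 19.05% of the diploid ones. On the scale of the smoothed score, 0 members reached a difference of 0.5 in either direction, where the background was 0.532% for haploid higher and 1.01% for diploid higher (1.54% in all). The measure and the strictness of the limit differ together between these counts.

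Homologs of the diploid cells seldom differed at the clusters. A mean of 1.20% ± 3.57 of members was replicated on 1 homolog only (SD, n = 63), against 0.868% ± 1.59 of other bins. The difference was 0.336 points ± 3.40, with members higher in 7 cells, lower in 38 and equal in 18. Homolog states differ in these data only where enough reads with strain variants were present, so a difference can be missed. The 129 homolog alone was replicated in 0.726% and the Castaneus homolog alone in 0.478%. In all, 12 cases occurred in 9 cells.

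Vmn1r4 to Vmn1r25 had the highest level, 3.48%, from 3 cells. In cell E1 all 26 bins had replicated on Castaneus alone, in cell H8 20 bins had done so, and in cell E7 11 bins had replicated on 129 alone. On chromosome 17 the only case was cell A5, in which 48 of 54 bins had replicated on 129 alone at 38.4% progress. This case gave the highest value of any diploid cell for that cluster, 44.4%. All 10 measured bins of Vmn1r103 to Vmn1r178 had replicated on Castaneus alone in cell H4. Vmn2r19 to Vmn2r27 had 0 asynchronous bins. Members asynchronous in at least 2 cells numbered 28 of 236 (11.9%, background 11.5%), with 20 in Vmn1r4 to Vmn1r25 and 8 in Vmn2r65 to Vmn2r76. Without Vmn1r4 to Vmn1r25 the difference to other bins was 0.0543 points.

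The genes that work with these receptors were placed in the same order, by the bin that holds their start. Of 68 listed genes 66 were found and 63 had a time. Their median was 41.3, and 27 (42.9%) lay in the later 50%, against 19.8% of 19345 protein-coding genes with a time and a median of 25.2. Many listed genes are neighbours and not separate values. Of the 27, 13 were ligands, all of them Esp genes of chromosome 17, and 7 were formyl peptide receptors within the chromosome 17 cluster.

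Ligands had a median of 74.6 over 20 genes. Lcn3, a lipocalin, was the earliest at 3.54 and Esp18, an exocrine gland peptide gene, the latest at 97.2. The major urinary protein genes Mup3, Mup4, Mup5, Mup20 and Mup21, chosen after their values were seen, stood between 41.3 and 42.5. Formyl peptide receptors, another receptor family of the organ, had 7 genes with a median of 61.5, all within the chromosome 17 cluster, from Fpr1, Fpr2 and Fpr3 at 54.4 to Fpr-rs7 at 97.7. They share those bins with the receptor genes and are no independent values.

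The other roles replicated earlier. The class Ib MHC genes, whose products associate with V2R receptors, had a median of 24.6 over 9 genes, from H2-M1 at 17.5 to H2-M10.2 at 38.97. These genes are neighbours on chromosome 17 and not separate values. Signal transduction genes had a median of 18.3 over 16 genes, from the G protein subunit gene Gng13 at 0.965 to the receptor transporter gene Rtp2 at 50.2. Gnai2, the partner of V1R receptors, stood at 5.69 and Gnao1, the partner of V2R receptors, at 36.5, both chosen after their values were seen. Transcription factors had a median of 50.4 over 11 genes, from Tfap2e at 10.18 to Gli3 at 76.5.

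**Figure D5:**
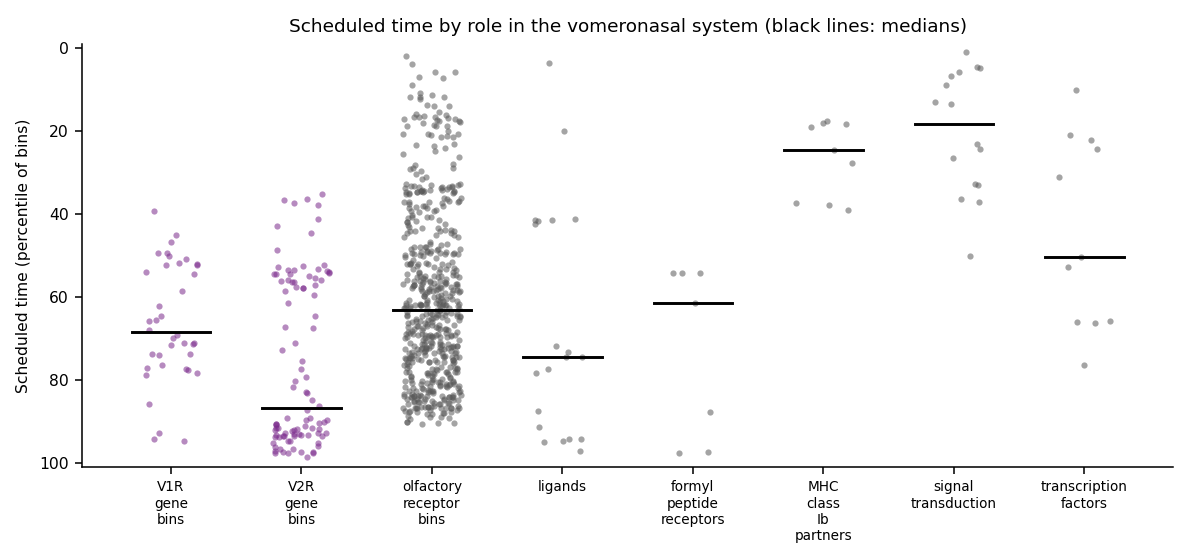
Scheduled time (vertical axis, percentile of bins, earliest at the top) of bins with V1R and V2R genes in the clusters, of olfactory receptor bins, and of genes by role in the vomeronasal system, with 1 point per bin or gene and medians as black lines. Signal transduction genes have a median of 18.3 and receptor bins medians of 68.5 (V1R) and 86.8 (V2R).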

How the data were processed

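The authors mapped reads of single nuclei to mm10 with Bowtie2, dropped reads of low mapping quality, removed duplicates and counted reads in 50 kb bins. Bins of extreme coverage in G1 and G2 controls were masked. Segments of low mean control coverage were also discarded, as a step against repetitive sequence that maps poorly. Coverage was divided by that of the controls, and each cell was centered, scaled and median smoothed. The deposited smoothed score has no fixed unit. The deposited binarized states are 0 or 1, given per homolog in diploid cells. Tool names come from the submitters' processing notes. A further 24 columns (16 binarized, 8 smoothed) of 8 diploid cells matched no label and were not used.

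From these values, percentages, ranks and strata were computed with Python 3.11.15, numpy 2.4.6 and pandas 2.3.3. Genes came from GENCODE M21 and sequence from GRCm38, the same assembly as mm10. A 50-mer was repeated if it occurred more than once on its chromosome on either strand. The schedule, the line difference at matched progress and the asynchrony difference were tested on simulated cells. Their bins were drawn independently, unlike the smoothed and segmented data. The count of repeated 50-mers was tested on a made sequence, and the other steps were not tested in this way. The members and gene lists were chosen with earlier results of these data known. Most genes were named by rule. The rule took the first and last receptor gene of a cluster and those of its earliest and latest bin. It also took other protein-coding genes that start in the earliest bin of a cluster, and the earliest and latest gene of each role. The Mup genes, Gnai2, Gnao1 and the genes of the printed promoters were named outside this rule. The lines were compared as 1 sample each. Alternatives changed the schedule, cells, bin criteria, strata and clusters included.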

Additional observations from a re-analysis of the deposited data

How the results depend on the processing

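A total of 157 alternatives were computed for 15 results. In 140 the value kept its sign and moved by less than the spread over cells, 11 moved further and 6 turned in sign. The count of members that differ between lines has no spread and was judged by the ratio of counts. In some results the spread exceeds the value, so a move below it shows little. Examples are asynchrony (0.336 points, spread 3.40) and the early (1.11, spread 8.29) and late excess (1.97, spread 9.20). The cause of a move was not tested except where a setting removes clusters or bins. With receptor gene bins alone, the median scheduled time of members was 73.97, and the gap to the other bins was -19.3 points in haploid and -28.8 in diploid cells. The median was 65.9 without Vmn1r40 to Vmn1r54, 66.5 without Vmn2r19 to Vmn2r27 and 66.5 without Vmn2r58 to Vmn2r63. With every cluster counted once the gap was -1.34 points in haploid and -7.49 in diploid cells, and it was -14.6 and -18.3 when states were replaced by scores above 0. Without the chromosome 17 cluster the haploid gap turned to 0.762, the diploid gap was -7.11, and receptor gene bins were 11.1 points later than other members. The difference to olfactory bins turned to 2.29 without chromosome 5, 2.66 without Vmn1r40 to Vmn1r54, 3.18 without Vmn2r19 to Vmn2r27 and 3.24 without Vmn2r58 to Vmn2r63. In diploid cells alone the early excess of members was -1.63 points. A limit of 25 points in place of 0.5 of score took the count of members that differ between lines from 0 to 25. A schedule from binarized states moved the median of the listed genes to 32.6. Leaving out the 4 cells that follow the order least was chosen after seeing the data.

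No paired analysis was possible because cells of the lines share no replicate and no test was made. Depth limits these values to an unknown extent, since read numbers are not part of them. Neighbouring bins share values through smoothing, and states were segmented by the authors over several bins. Masked bins remove most of the receptor genes whose promoter had a nearly identical match. With 1 culture named per line, the spread between cultures is not measured.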
